A study of Mus musculus with 24 samples.

Results

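Common lymphoid progenitors (CLPs), the bone marrow cells from which B, T and NK cells derive, were compared between mice that lacked both PLCγ1 and PLCγ2 (Plcg1-/-Plcg2-/-) and mice that lacked PLCγ2 alone (Plcg1+/+Plcg2-/-). The comparison asks what the loss of PLCγ1 adds in CLPs that already have no PLCγ2. It rests on 6 of the 24 libraries of the series, the 3 CLP libraries labelled with each of these genotypes, chosen by cell population and genotype in the sample labels. The other CLP libraries were 3 of Plcg1+/+Plcg2+/+ and 3 of Plcg1-/-Plcg2+/+, and the other 12 libraries were of B220+IgM-IL-7R+ B cell progenitors of the same 4 genotypes. Donor mice of both genotypes carried a germline loss of Plcg2, the MxCre transgene and a Rosa-YFP reporter, and the Plcg1-/-Plcg2-/- donors also carried floxed Plcg1 (Plcg1 fl/fl). The paper describes its experimental and control mice as adults of a mixed strain background and of both sexes. All donors were treated with poly(I:C), which induces type I interferon and so the Mx promoter that drives Cre. Their bone marrow was transplanted into lethally irradiated wild-type CD45.1+ recipients, from which CD45.2+ Lin-IL-7R+ cells were later sorted. MxCre acts in many haematopoietic and other cells, so Plcg1 was not deleted in lymphoid cells only, and YFP is not among the sort markers given for the CLPs. The number of donors per genotype is not stated in the sources used here, so that n counts recipients, and donor and genotype cannot be told apart if recipients shared a donor.

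PLCγ1 and PLCγ2 are phospholipases that are activated by tyrosine kinases. They cleave the membrane lipid PIP2 into diacylglycerol (DAG), which recruits protein kinase C and the RasGRP activators of Ras, and IP3, which opens calcium stores in the endoplasmic reticulum. PLCγ2 is known for its role downstream of the B cell receptor, and PLCγ1 for its role downstream of the T cell receptor. IL-7 is the main cytokine of early mouse B cell development, and its receptor was used to sort the cells.

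Reads on genes ranged from 4232345 to 22245995 in Plcg1+/+Plcg2-/- and from 12172383 to 25117842 in Plcg1-/-Plcg2-/- CLPs (exact permutation test, p = 0.6, n = 3 per genotype, smallest possible p 0.1). The share of reads on no gene was 25.9%, 28.9% and 45.2% in Plcg1+/+Plcg2-/- and 23.5%, 17.9% and 21.3% in Plcg1-/-Plcg2-/- CLPs, with no overlap (exact permutation test, two-sided p = 0.1, which is the smallest this design allows). Levels are given as normalized CPM, reads of a gene scaled by the library's reads on genes and by TMM, in the order of replicates 1, 2 and 3. At these depths 3 reads were between 0.119 and 0.709 CPM, a limit that covers counting error only. Replicates of a genotype were not alike in composition. The summed level of 5 basophil and mast cell markers was 1250 and 893 CPM in replicates 1 and 3 of Plcg1+/+Plcg2-/- but 4593 in replicate 2, and 1539 and 813 in replicates 1 and 3 of Plcg1-/-Plcg2-/- but 7957 in replicate 2. The 7 B cell progenitor markers, among them Cd79a and Pax5, summed to between 1379 and 5570 CPM in the 6 CLP libraries. In the B cell progenitor libraries of these 2 genotypes they summed to between 1694 and 5690 CPM. The 8 CLP markers summed to between 1422 and 3340 CPM in the CLP libraries and between 1389 and 5121 CPM in those B cell progenitor libraries. Neither sum thus set the CLP libraries apart, and these sorted cells were not free of transcripts of B-committed cells. The 12 neutrophil and myeloid progenitor markers summed to between 3082 and 9931 CPM in the 6 CLP libraries. CLP and B cell progenitor libraries with the same genotype and number were close to each other, with a Pearson correlation of log2(CPM + 1) of 0.956 to 0.984 over 20610 genes, given as a description.

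The genotype labels were checked first on the targeted genes. Plcg1 was at 89.6, 96.9 and 93.6 CPM in Plcg1+/+Plcg2-/- and 87.3, 144 and 185 CPM in Plcg1-/-Plcg2-/- CLPs, and did not pass the test (log2 fold change 0.57, SE 0.26, edgeR quasi-likelihood test with Benjamini-Hochberg adjustment, adjusted p = 0.665). Counts over a whole gene do not show the loss of floxed exons, so the level of Plcg1 does not check the labels. Plcg2 was at 127, 101 and 137 CPM in Plcg1+/+Plcg2-/- and 114, 95.1 and 115 CPM in Plcg1-/-Plcg2-/- CLPs (log2 fold change -0.17, SE 0.16), against 196, 279 and 220.4 CPM in Plcg1+/+Plcg2+/+ CLPs. Il7r, which encodes the receptor chain used for the sort, was at 145, 496 and 181 CPM in Plcg1+/+Plcg2-/- and 133, 429.7 and 334 CPM in Plcg1-/-Plcg2-/- CLPs, with overlapping groups.

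Sex-linked transcripts divided both genotypes. Ddx3y, a Y-linked RNA helicase gene, was at 118, 134 and 98.0 CPM in Plcg1+/+Plcg2-/- and 8.14, 2.59 and 1.44 CPM in Plcg1-/-Plcg2-/- CLPs, 28.8-fold lower (log2 fold change -4.83, SE 0.60, edgeR adjusted p = 0.0362). Eif2s3y, a Y-linked translation factor gene, fell from 106 ± 11.8 to 3.80 ± 3.06 CPM (SD, n = 3, edgeR adjusted p = 0.0362). Xist, the RNA that silences an X chromosome in female cells, was at 239, 114 and 741 CPM in Plcg1+/+Plcg2-/- and 2028, 1622 and 1382 CPM in Plcg1-/-Plcg2-/- CLPs and did not pass (edgeR adjusted p = 0.591). X-linked Kdm6a, Eif2s3x and Kdm5c, of the genes known to escape X inactivation, had log2 fold changes of 0.58, 0.65 and 0.65, with all Plcg1-/-Plcg2-/- libraries above all Plcg1+/+Plcg2-/- libraries. Sex of the sorted cells and genotype therefore cannot be told apart in the contrast of these 2 genotypes. In the list of 9 sex-linked genes, 2 were called lower by the unpaired test (0.0197% of all genes), as the tests are defined below. The paired test of 12 libraries called 3 lower (0.046% of all genes). That of 9 libraries called 3 higher and 4 lower (0.944% and 0.656% of all genes).

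Of 15209 genes tested with the 12 CLP libraries in one fit, 8 (0.0526%) were called changed, 5 higher (0.0329%) and 3 lower (0.0197%). A call required an adjusted p no greater than 0.05 together with a log2 fold change of 0.5 or more in either direction. Serinc3, Ddx3y and Eif2s3y were lower in Plcg1-/-Plcg2-/- CLPs, and Fcrl6, Cabp4, A630023P12Rik, Gm5801 and Fibcd1 were higher. An unadjusted p of at most 0.05 was met by 1147 genes (7.54%), 536 higher (3.52%) and 611 lower (4.02%), and the median log2 fold change of all genes was -0.02. Deviations from the genotype's mean correlated at 0.236 to 0.645 between replicates with the same number in Plcg1-/-Plcg2+/+, Plcg1+/+Plcg2-/- and Plcg1-/-Plcg2-/- CLPs. Calls are therefore also given from a fit that has this number as a block, termed the paired test here. Counts at an unadjusted p of at most 0.05 are those of the unpaired test unless another is named. With all 12 libraries the paired test called 26 genes (0.171%), 19 higher (0.125%) and 7 lower (0.046%), and all 8 genes of the unpaired test were among them. The numbers of the Plcg1+/+Plcg2+/+ libraries did not pair with the others. Without these 3 libraries, an alternative chosen after seeing the data, the paired test called 234 of 14625 genes (1.6%), 138 higher (0.944%) and 96 lower (0.656%), and these held all 26. In it, 15.6% of genes had an unadjusted p of at most 0.05, 7.7% higher and 7.92% lower. DESeq2 on the 12 libraries, unpaired, called 104 genes (0.684%), 66 higher (0.434%) and 38 lower (0.25%), of which 92 were among the 234. Calls of the unpaired test rested on all libraries but 1: leaving out replicate 1 of Plcg1-/-Plcg2-/- gave 18 calls, and leaving out any of the other 5 left 1, Serinc3. The share of reads on no gene as a covariate also left 1, Serinc3. Below, "changed" and similar verbs without a named test refer to the unpaired edgeR test.

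**Figure D1:**
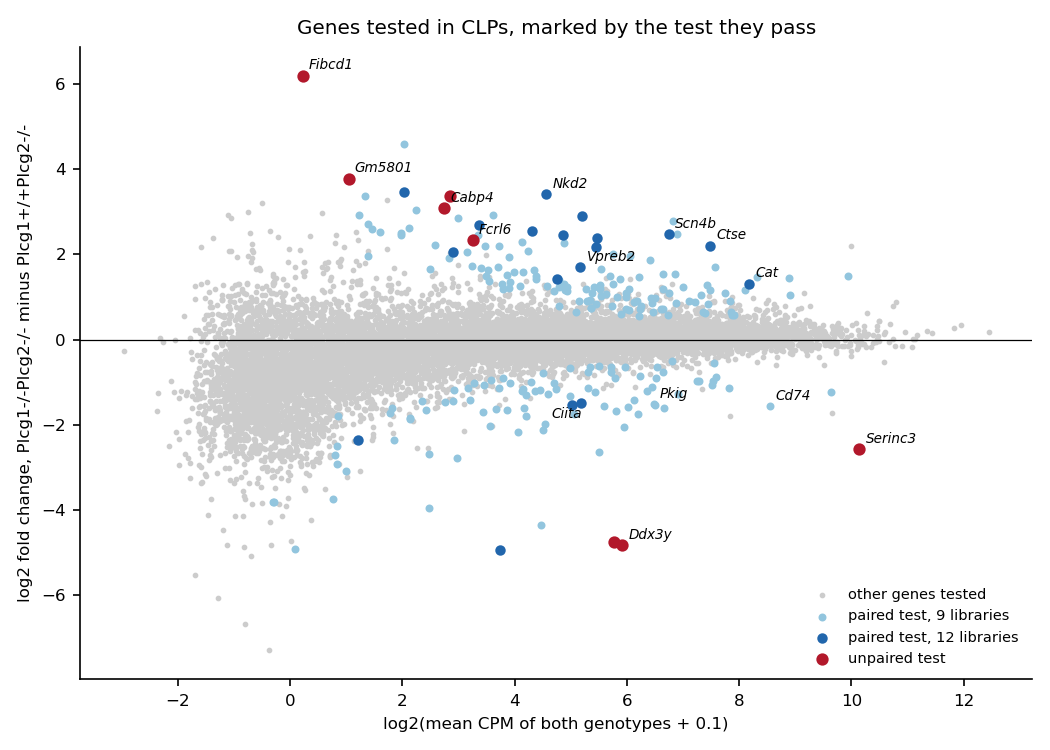
Each point is a gene tested in CLPs, with its mean level in both genotypes on the horizontal axis (log2 of CPM + 0.1) and its log2 fold change, Plcg1-/-Plcg2-/- minus Plcg1+/+Plcg2-/-, on the vertical axis. The 8 genes past the unpaired test are red, the further genes of the 26 past the paired test of 12 libraries are dark blue, and those past the paired test of 9 libraries alone are light blue; Serinc3 combines a high level with a large fall.

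Serinc3, a gene for a multi-pass membrane protein of the serine incorporator family, had the smallest p of all genes. Its level was 1978, 2073 and 1737 CPM in Plcg1+/+Plcg2-/- and 429, 261 and 287 CPM in Plcg1-/-Plcg2-/- CLPs, so that every Plcg1-/-Plcg2-/- library was far below every Plcg1+/+Plcg2-/- library. The mean fell from 1929 ± 174 to 326 ± 90.2 CPM (SD, n = 3), 5.93-fold lower (log2 fold change -2.57, SE 0.20, edgeR adjusted p = 0.000558). In CLPs with Plcg2, Serinc3 was at 1134, 1522 and 1453 CPM in Plcg1+/+Plcg2+/+ and 1210.0, 1236 and 1225 CPM in Plcg1-/-Plcg2+/+ libraries. The Plcg1+/+Plcg2-/- libraries were thus the highest and the Plcg1-/-Plcg2-/- libraries the lowest of the 12.

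**Figure D2:**
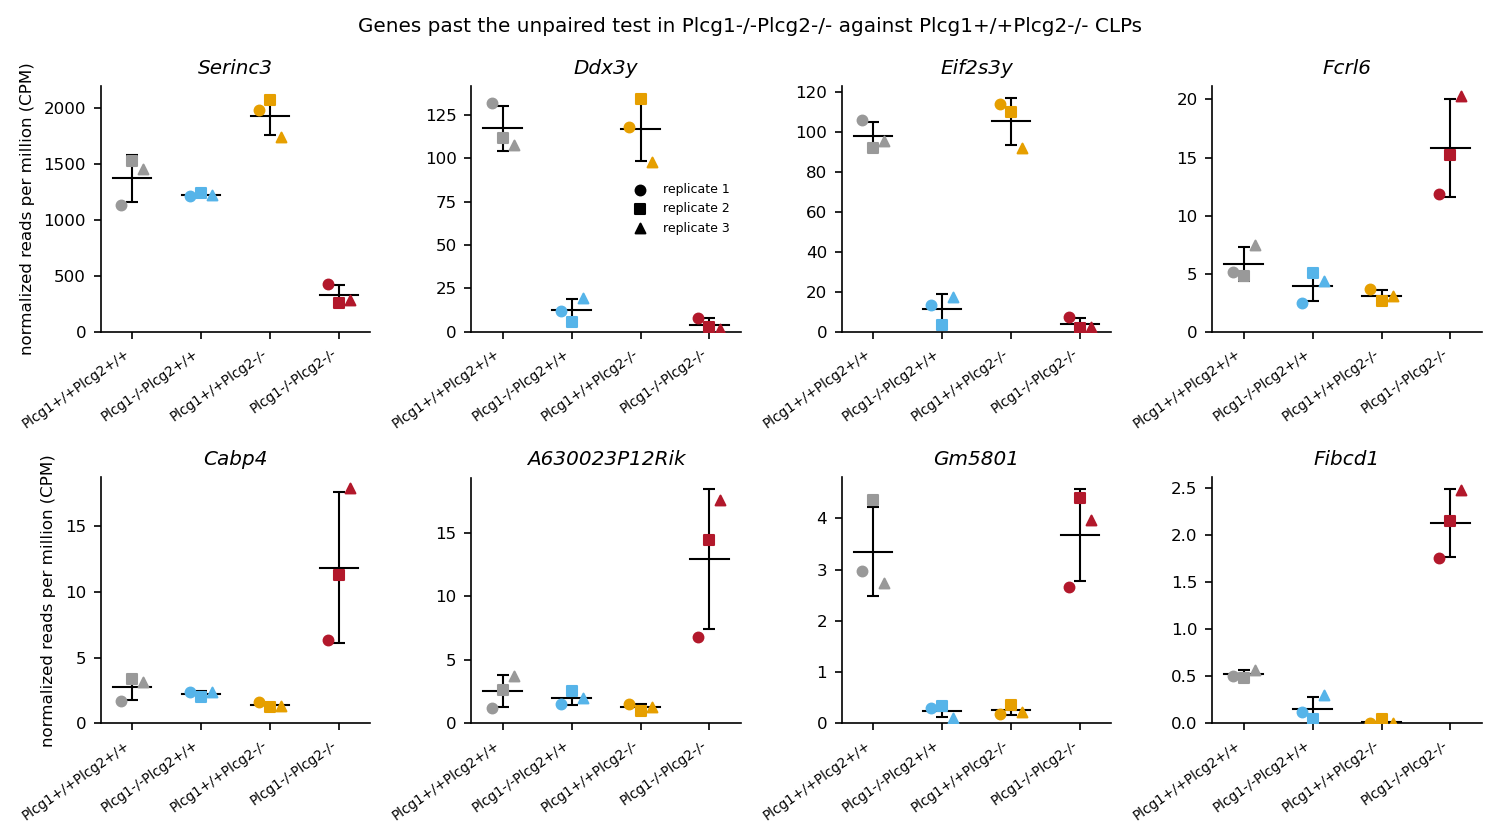
Normalized CPM of the 8 genes past the unpaired test in the 4 CLP genotypes, with 3 libraries per genotype (marker shape gives the replicate), the mean as a horizontal line and the SD as a bar. For Serinc3 the Plcg1-/-Plcg2-/- libraries lie between 261 and 429 CPM and all other libraries between 1134 and 2073 CPM, whereas Ddx3y and Eif2s3y are low in both Plcg1-/- genotypes.

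Serinc3 (chr2:163623273-163645149, minus strand, mm10) lies on the chromosome of Plcg1 (chr2:160731310-160775760). Its lower coordinate is 2.89 Mb from that of Plcg1. The non-coding gene 0610039K10Rik (chr2:163644850-163645800, plus strand) overlaps the start of Serinc3 on the other strand, and since the library kit is not stated to keep the strand, the reads of both genes cannot be parted there. 0610039K10Rik was at 5.36, 3.20 and 2.64 CPM in Plcg1+/+Plcg2-/- and 0.999, 0.517 and 0.661 CPM in Plcg1-/-Plcg2-/- CLPs (log2 fold change -2.35, SE 0.40), and passed the paired test of 12 libraries (edgeR adjusted p = 0.0381) but not the unpaired test (edgeR adjusted p = 0.106). Pkig (chr2:163658211-163726158), an inhibitor of protein kinase A, was at 146, 118 and 133 CPM in Plcg1+/+Plcg2-/- and 49.7, 36.9 and 51.7 CPM in Plcg1-/-Plcg2-/- CLPs, 2.87-fold lower. It passed only the paired test of 9 libraries (edgeR adjusted p = 9.95e-05) of the edgeR tests named here (unpaired, edgeR adjusted p = 0.258). Ttpal (chr2:163602285-163619013), on the other side of Serinc3, encodes a lipid transfer protein and differed in the opposite direction, from 76.0 ± 5.90 to 179 ± 72.7 CPM (SD, n = 3, edgeR adjusted p = 0.462 unpaired and 0.0120 in the paired test of 9 libraries).

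The sequence before the start of Serinc3 is shown because this gene had the smallest p and because the window also lies within 0610039K10Rik. It covers chr2:163645144-163645303 (GRCm38.p6, RefSeq, minus strand), the 160 bases before the start used in the RefSeq promoter table, which lies a few bases inside the gene as placed above, written 5′ to 3′ with matches to CCAAT and TGACGT on either strand in capitals.
Serinc3: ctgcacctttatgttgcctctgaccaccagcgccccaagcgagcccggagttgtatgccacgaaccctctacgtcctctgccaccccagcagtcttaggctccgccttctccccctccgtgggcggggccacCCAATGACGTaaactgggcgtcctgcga
Both motifs share a base here. CCAAT or its complement is in 25.6% and TGACGT or its complement in 5.32% of 32851 RefSeq promoter windows of this length, and a match is a description of the letters.

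Around Plcg1, 104 tested genes have their lower coordinate within 5 Mb of that of Plcg1, and distances are between these coordinates on either strand. By the unpaired test 1 of them, Serinc3, was called (background 0.0526%), by the paired test of 12 libraries 2 (0.171%), and by that of 9 libraries 7 of 103 (1.6%), of which Serinc3, 0610039K10Rik, Pkig and Tox2 were lower and Ttpal, Ada and Eya2 higher. Tox2, a nuclear factor of the TOX family, was at 0.456, 25.8 and 1.98 CPM in Plcg1+/+Plcg2-/- and 0.190, 4.22 and 0.372 CPM in Plcg1-/-Plcg2-/- CLPs, lower in each numbered pair. Replicate 2 was the highest of both genotypes, and leaving out that of Plcg1+/+Plcg2-/- alone turned the sign in the unpaired test (log2 fold change 0.53). The median log2 fold change of the 104 genes was -0.0013, close to -0.02 for all genes. The called genes lay between 2.47 and 4.86 Mb from Plcg1, all on the same side. Serinc3 did not differ in this way with Plcg1 loss on Plcg2+/+, as given below. Whether sequence carried along with the floxed allele has a part in it was not tested.

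**Figure D3:**
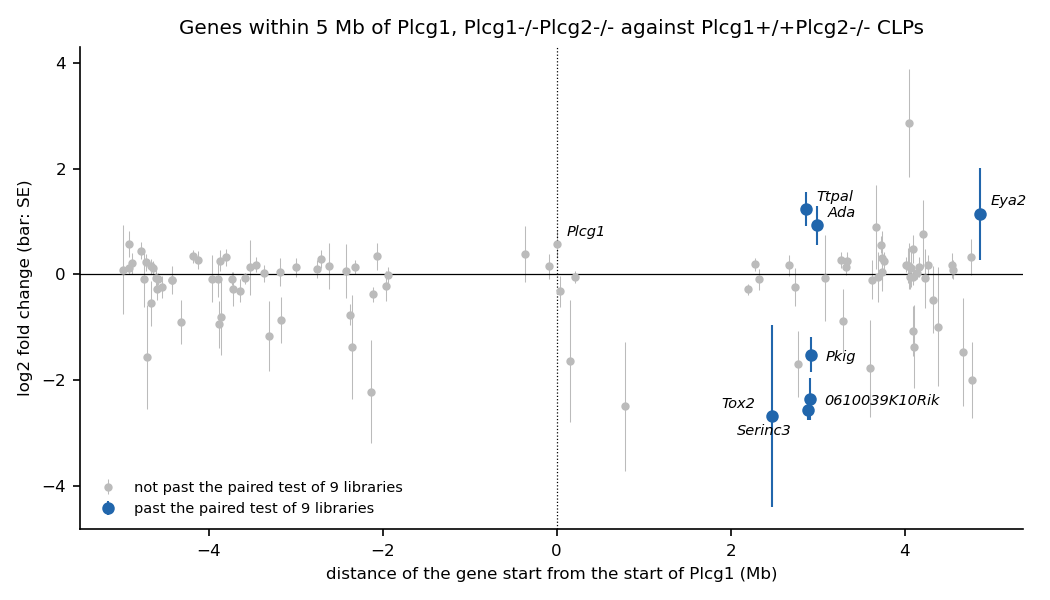
Log2 fold change (point) and its SE (bar) in Plcg1-/-Plcg2-/- against Plcg1+/+Plcg2-/- CLPs for the 104 tested genes within 5 Mb of Plcg1, by distance. The gene start of the axis is the lower coordinate on either strand. The 7 genes past the paired test of 9 libraries (blue) are at distances above 2 Mb, and most others (grey) lie near 0.

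Among the genes that rose, Fcrl6, an Fc receptor-like surface receptor of lymphocytes, was at 3.65, 2.62 and 3.08 CPM in Plcg1+/+Plcg2-/- and 11.9, 15.3 and 20.3 CPM in Plcg1-/-Plcg2-/- CLPs, 5.07-fold higher (log2 fold change 2.34, SE 0.34, edgeR adjusted p = 0.0467). Cabp4, a calcium-binding protein best known from photoreceptor synapses, went from 1.60, 1.24 and 1.32 to 6.37, 11.3 and 17.9 CPM, 8.55-fold higher (SE of the log2 fold change 0.42, edgeR adjusted p = 0.0385). In both genes replicate 1 of Plcg1-/-Plcg2-/- was nearest to the Plcg1+/+Plcg2-/- libraries. The uncharacterised transcript A630023P12Rik was at 1.48, 0.978 and 1.32 CPM in Plcg1+/+Plcg2-/- and 6.80, 14.5 and 17.6 CPM in Plcg1-/-Plcg2-/- CLPs (edgeR adjusted p = 0.0492). The other called genes had few reads. Gm5801 had 12 reads in all Plcg1+/+Plcg2-/- libraries and 203 in all Plcg1-/-Plcg2-/- libraries, a ratio of 13.3 after scaling (95% exact counting interval 7.44 to 26.1). Fibcd1, which encodes a membrane protein that binds acetylated sugars, had 1 read in all Plcg1+/+Plcg2-/- libraries and 122 in all Plcg1-/-Plcg2-/- libraries, a ratio of 95.7 with a wide counting interval of 16.9 to 3813. Both intervals rest on reads pooled over the libraries of a genotype and leave out the spread between them. With Xist, Tsix and Y-linked genes left out before the fit, none of these 5 increases passed, and the edgeR adjusted p of Gm5801 was then 0.0578.

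Genes that rose by the paired test of 12 libraries but not by the unpaired test came from several functional groups and were named after their values were seen. Nkd2, an inhibitor of Wnt signalling, was at 1.03, 5.47 and 5.93 CPM in Plcg1+/+Plcg2-/- and 15.3, 52.2 and 61.6 CPM in Plcg1-/-Plcg2-/- CLPs, higher in each numbered pair (edgeR adjusted p = 0.00296 paired and 0.270 unpaired). Scn4b, a sodium channel subunit, went from 17.3, 33.2 and 48.8 to 67.3, 219 and 258 CPM (edgeR adjusted p = 0.0118 paired). Ctse, the endosomal protease cathepsin E, went from 50.8, 43.2 and 98.0 to 219.8, 335 and 326 CPM (edgeR adjusted p = 0.0156 paired). All 3 genes had no overlap between genotypes, and the lowest Plcg1-/-Plcg2-/- library was replicate 1 each time. Pcdh9, a protocadherin, was 7.30-fold, Mmrn1, the platelet and endothelial protein multimerin 1, 5.06-fold, Grb7, an adaptor of receptor tyrosine kinases, 4.46-fold, and Cat, the enzyme catalase, 2.48-fold higher in mean CPM, with paired adjusted p values (edgeR) of 0.00353, 0.0118, 0.0254 and 0.0381. Crip2, Tmprss4, 2510009E07Rik, Arhgap10, Fxyd6 and Vpreb2 were also among them. The genes lower by this test were Serinc3, 0610039K10Rik, Rasgrp1, Prg3 (an eosinophil granule protein, 94.4, 19.6 and 46.6 against 31.7, 10.4 and 14.7 CPM) and the Y-linked Ddx3y, Eif2s3y and Uty.

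Of the 15209 genes tested, 1043 (6.86%) were higher and 1125 (7.4%) lower in Plcg1-/-Plcg2-/- CLPs without overlap between the groups. Besides those above, the higher ones with the smallest unadjusted p included Rdh10 (a retinol dehydrogenase, 2.40-fold), E130308A19Rik (2.25-fold), Eps8l1 (an actin regulator, 5.03-fold), Cacna1i (a T-type calcium channel, 5.62-fold) and Ifitm2 (an interferon-induced membrane protein, 1.65-fold). The lower ones were Klrb1a (an NK cell receptor, 8.12-fold), Zcchc18 (1.89-fold), Gm1821 (15.4-fold), Rhoq (a small GTPase, 2.24-fold) and Slc15a2 (a peptide transporter, 2.33-fold), with Ikzf3 and Blk, which are given with the B lineage genes. None of these passed the unpaired test, with edgeR adjusted p from 0.135 for Rdh10 to 0.261 for Slc15a2.

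In the pathway of PLCγ itself, Rasgrp1 stood out. RasGRP1 is a Ras activator that is recruited to membranes by DAG. Its transcript was at 49.9, 50.1 and 45.3 CPM in Plcg1+/+Plcg2-/- and 20.3, 19.5 and 10.3 CPM in Plcg1-/-Plcg2-/- CLPs, so that the groups were far apart, and at 59.2, 46.9 and 45.8 and 58.7, 43.6 and 48.5 CPM in Plcg1+/+Plcg2+/+ and Plcg1-/-Plcg2+/+ CLPs. The difference, 2.90-fold lower (log2 fold change -1.54, SE 0.24), was just outside the unpaired threshold (edgeR adjusted p = 0.0514) and passed the paired test of 12 libraries (edgeR adjusted p = 0.0167). Rasgrp2 differed the other way, from 300.0, 296 and 285 to 366, 501 and 594 CPM (edgeR adjusted p = 0.406), as did the DAG kinase Dgka, from 114, 115 and 134 to 126, 208 and 259 CPM (edgeR adjusted p = 0.570), neither past the threshold. Of 23 tested genes of the DAG branch (protein kinases C and D, RasGRPs and DAG kinases), 0 were called by the unpaired test. At an unadjusted p no greater than 0.05, 2 were higher and 4 lower (3.52% and 4.02% of all genes). The paired test of 12 libraries called 1 lower, Rasgrp1 (0.046% of all genes). By the paired test of 9 libraries 3 of 22 were lower (0.656% of all genes), among them Rasgrp1 and Dgke (a DAG kinase, 1.57-fold). The median log2 fold change of the branch was -0.08.

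The calcium branch had a median log2 fold change of 0.29 over 19 tested genes of IP3 receptors, store-operated entry, calcineurin and NFAT. None was called by any of these edgeR tests, and 4 were higher at an unadjusted p no greater than 0.05 (3.52% of all genes), with 7 in the paired fit of 9 libraries (7.7%). The 4 were Rcan1, a calcineurin regulator (13.1, 11.6 and 10.1 against 17.9, 15.1 and 17.9 CPM), Orai1, the pore of store-operated calcium channels (34.4, 23.4 and 25.5 against 39.4, 36.6 and 37.0 CPM), Nfat5 and Stim1, the calcium sensor of the endoplasmic reticulum. Their fold changes were small, between 0.42 and 0.54 on the log2 scale. Of the 14 tested PLC family genes, 0 were called and 1, the low-level Plce1 (1.25, 1.42 and 4.39 against 0.523, 0.431 and 0.578 CPM), was lower at an unadjusted p of at most 0.05. No phospholipase C transcript was higher at that level in the unpaired test. In the paired fit of 9 libraries 1 was higher and 2 were lower (7.7% and 7.92% of all genes).

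In the list of mTOR complexes and regulators, 0 of 39 genes were called by the unpaired test, and the median log2 fold change was 0.04. Rptor, the raptor subunit of mTORC1, was at 89.5, 85.8 and 78.2 CPM in Plcg1+/+Plcg2-/- and 100.1, 134 and 161 CPM in Plcg1-/-Plcg2-/- CLPs, higher in each Plcg1-/-Plcg2-/- library (edgeR adjusted p = 0.506). Rragd, a Rag GTPase that brings mTORC1 to lysosomes, was at 6.90, 12.2 and 15.2 against 15.3, 34.0 and 41.4 CPM and passed the paired test of 9 libraries alone (edgeR adjusted p = 0.0101, unpaired 0.591). It was the 1 of the 39 genes called by that test, which called 0.944% of all genes higher. Eif4ebp2, a repressor of cap-dependent translation, had a log2 fold change of 0.34. Of 18 genes of the IL-7 receptor pathway none passed any of the edgeR tests and 0 reached an unadjusted p of 0.05, with log2 fold changes between -0.82 and 0.53. The smallest p in the list was that of the cyclin gene Ccnd2 (157, 229 and 133 against 145, 117 and 67.4 CPM, edgeR adjusted p = 0.681).

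MHC class II genes were lower in Plcg1-/-Plcg2-/- CLPs by the paired test of 9 libraries. These genes encode the proteins that present peptides to CD4 T cells, and B cells express them through the transactivator CIITA. Cd74, the invariant chain of MHC class II, was at 749.7, 350.1 and 573 CPM in Plcg1+/+Plcg2-/- and 310.1, 103 and 150.2 CPM in Plcg1-/-Plcg2-/- CLPs. H2-Eb1 went from 122, 87.7 and 129.9 to 51.9, 24.3 and 24.4 CPM, and H2-Aa, which encodes the α chain of I-A, from 163, 96.8 and 199.9 to 84.8, 29.3 and 36.5 CPM. Each Plcg1-/-Plcg2-/- library was below every Plcg1+/+Plcg2-/- library, with replicate 1 the highest of the Plcg1-/-Plcg2-/- libraries. Ciita went from 45.3, 21.4 and 45.3 to 15.7, 6.55 and 5.78 CPM (log2 fold change -1.99, SE 0.52). H2-DMb2, a chaperone of peptide loading, and H2-Ab1 were 3.08-fold and 1.98-fold lower.

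None of the 11 MHC class II genes passed the unpaired test or the paired test of 12 libraries (for the 6 genes above, edgeR adjusted p from 0.350 for H2-Eb1 to 0.605 for H2-Ab1 in the unpaired test). All 6 were lower at an unadjusted p no greater than 0.05 (4.02% of all genes), and the groups did not overlap in 6 (7.4% of all genes were lower in this way). The paired test of 9 libraries called the same 6 of 11, with edgeR adjusted p from 0.00148 for Cd74 to 0.0216 for H2-Ab1, against 0.656% of all genes called lower. The median log2 fold change of the list was -0.98. Markers of other cells that express MHC class II moved as follows. The 5 mature B cell markers summed to between 114 and 373 CPM in Plcg1+/+Plcg2-/- and 87 and 141 CPM in Plcg1-/-Plcg2-/- CLPs, the 6 plasmacytoid dendritic cell markers to between 296 and 570 and between 190 and 429 CPM, and the 16 macrophage markers to between 172 and 256 and between 200 and 246 CPM. None of these lists was at 0, and their part in the result was not tested. In bulk samples fewer cells of a type and less RNA per cell cannot be told apart.

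**Figure D4:**
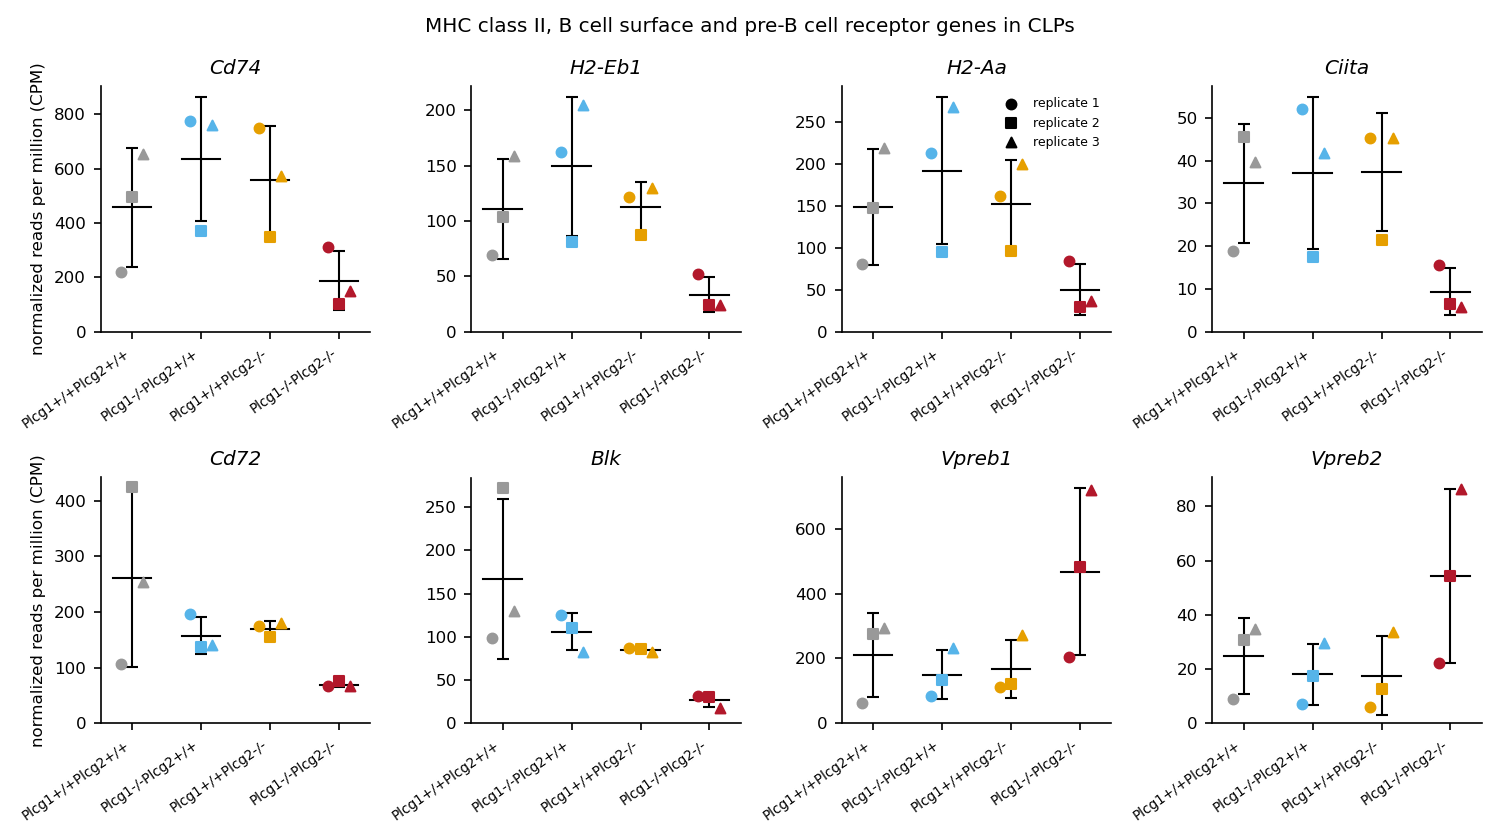
Normalized CPM of MHC class II, B cell surface and pre-B cell receptor genes in the 4 CLP genotypes, with 3 libraries per genotype (marker shape gives the replicate), the mean as a horizontal line and the SD as a bar. In Cd74, H2-Eb1, H2-Aa, Ciita, Cd72 and Blk the Plcg1-/-Plcg2-/- libraries are below all Plcg1+/+Plcg2-/- libraries, and in Vpreb1 and Vpreb2 each Plcg1-/-Plcg2-/- library is above the Plcg1+/+Plcg2-/- library with its number.

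The promoters of MHC class II genes are shown because members of the list were lower together and because these promoters are textbook examples of a shared architecture, with an X box that can hold a cyclic AMP response element and a Y box that holds an inverted CCAAT motif. The 160 bases before the RefSeq start (GRCm38.p6) are written 5′ to 3′, with matches to CCAAT and TGACGT on either strand in capitals. H2-Eb1 covers chr17:34305707-34305866 (plus strand), H2-Aa chr17:34287824-34287983 (minus strand) and H2-DMb2 chr17:34145089-34145248 (plus strand).
H2-Eb1: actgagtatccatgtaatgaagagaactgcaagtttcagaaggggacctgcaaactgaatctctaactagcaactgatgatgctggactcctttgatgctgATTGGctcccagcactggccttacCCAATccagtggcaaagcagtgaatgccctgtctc
H2-Aa: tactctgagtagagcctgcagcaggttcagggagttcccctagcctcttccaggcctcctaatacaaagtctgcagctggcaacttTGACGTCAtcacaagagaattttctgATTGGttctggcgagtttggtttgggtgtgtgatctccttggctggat
H2-DMb2: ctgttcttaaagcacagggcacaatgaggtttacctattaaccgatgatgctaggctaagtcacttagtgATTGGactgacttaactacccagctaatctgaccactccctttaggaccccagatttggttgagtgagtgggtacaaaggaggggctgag
The capitals ATTGG are the CCAAT motif read on the other strand. H2-Eb1 also holds CCAAT on the strand shown. CCAAT on either strand was found in 7 of the 8 list genes whose windows were counted, and in 25.6% of 32851 RefSeq windows. The 7 include genes that did not pass any test. Cd74, which lies on another chromosome, was left out of this count by choice. Ciita and H2-Ab1 had no promoter window to count. TGACGT was found in 1 of the 8, H2-Aa, where matches on both strands overlap, and in 5.32% of all windows.

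Of 20 genes of later B cell stages, 5 were lower by the paired test of 9 libraries. Cd72, a co-receptor of the B cell receptor, was at 175, 155 and 181 CPM in Plcg1+/+Plcg2-/- and 66.6, 75.4 and 66.9 CPM in Plcg1-/-Plcg2-/- CLPs, with no overlap. Fcer2a, the low-affinity IgE receptor CD23, was at 20.01, 3.73 and 17.1 against 4.04, 0.603 and 1.07 CPM, and Fcrla, an intracellular Fc receptor-like protein of B cells, at 137, 61.5 and 102 against 47.5, 9.13 and 14.8 CPM. Cd22, an inhibitory lectin, and Cd83 were 2.31-fold and 3.46-fold lower. Of the 20 genes of this list 0 passed the unpaired test (6 were lower at an unadjusted p no greater than 0.05; 4.02% of all genes), 0 passed the paired test of 12 libraries and these 5 passed that of 9 libraries (0.656% of all genes were called lower by it), with edgeR adjusted p from 0.000854 for Fcrla to 0.0358 for Cd83. Fcmr, the IgM Fc receptor, was at 13.2, 5.33 and 23.3 against 5.71, 1.21 and 2.06 CPM and passed none of the 3 tests. The median log2 fold change of the list was -0.70.

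Some early B lineage genes were higher and others lower by the paired test of 9 libraries. Vpreb1 and Vpreb2 encode the surrogate light chain of the pre-B cell receptor. Vpreb1 was at 112, 121 and 272 CPM in Plcg1+/+Plcg2-/- and 204, 481 and 719 CPM in Plcg1-/-Plcg2-/- CLPs, higher in each numbered pair although the groups overlapped. Vpreb2 was at 5.93, 12.6 and 33.8 against 22.3, 54.5 and 86.4 CPM, and was called higher by the paired test of 12 libraries (edgeR adjusted p = 0.0149) but not by the unpaired test (edgeR adjusted p = 0.649). Igll1, which completes the surrogate light chain, had a log2 fold change of 1.06 (edgeR adjusted p = 0.0127 in the paired test of 9 libraries). Vpreb1 and Vpreb2 are near-identical in sequence, so that reads may have been divided between them. In contrast, Blk, a Src family kinase of B cells, was at 86.5, 85.3 and 82.8 CPM in Plcg1+/+Plcg2-/- and 31.7, 30.4 and 18.1 CPM in Plcg1-/-Plcg2-/- CLPs (3.17-fold lower, edgeR adjusted p = 0.233 unpaired and 0.000527 in the paired test of 9 libraries). Ly6d, a surface marker of B-committed CLPs, was at 197, 355 and 194 against 140.0, 174 and 93.9 CPM, again with no overlap. Of the 16 early B lineage genes, 0 were called by the unpaired test (3 higher and 2 lower at an unadjusted p no greater than 0.05; 3.52% and 4.02% of all genes), 1 higher by the paired test of 12 libraries (0.125% of all genes), and 3 higher and 2 lower by that of 9 libraries (0.944% and 0.656%), with a median log2 fold change of 0.70. Bst1 had an unadjusted p of 0.0319 (edgeR) and a log2 fold change of 1.23.

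Among 28 lymphoid specification factors, Ikzf3, which encodes the Ikaros family factor Aiolos, was at 237, 181 and 185 CPM in Plcg1+/+Plcg2-/- and 94.7, 110.0 and 101 CPM in Plcg1-/-Plcg2-/- CLPs, 1.98-fold lower (edgeR adjusted p = 0.140 unpaired and 0.00583 in the paired test of 9 libraries). Lef1, a factor of the Wnt pathway that pro-B cells express, was at 72.7, 93.8 and 165 against 99.5, 269 and 374 CPM and was called higher by the paired test of 9 libraries only (edgeR adjusted p = 0.0216). Foxo1, a regulator of Il7r and of recombination genes, was at 166, 126 and 177 against 150.5, 348 and 433 CPM (edgeR adjusted p = 0.621). The median of the list was 0.02, and 0 of its genes passed the unpaired test or the paired test of 12 libraries. The paired test of 9 libraries called 1 of the 28 higher and 1 lower, beside 0.944% and 0.656% of all genes.

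Other lists held few calls. None had a gene called by the unpaired test or the paired test of 12 libraries, apart from the lists described above. The paired test of 9 libraries called 0.944% of all genes higher and 0.656% lower. By this test, 1 of 18 homing and adhesion receptors was lower, the chemokine receptor Ccr7 (26.4, 26.7 and 19.99 against 8.18, 12.5 and 12.1 CPM). The ETS factor Erg was the 1 of 18 stem and multipotent progenitor genes that was higher (96.3, 87.8 and 116 against 137, 259 and 330.4 CPM), and Bok, a BCL2 family member, the 1 of the BCL2 family (2.96, 5.42 and 11.4 against 6.04, 18.9 and 24.6 CPM). The median log2 fold change was -0.12 in the stem and multipotent progenitor list and 0.14 in the BCL2 family. Zap70 and Lat were the 2 of 12 T cell markers called higher, while the median log2 fold change of the 12 was -0.30. Zap70, the kinase of the T cell receptor, was at 19.4, 40.9 and 20.4 CPM in Plcg1+/+Plcg2-/- and 46.5, 124 and 149 CPM in Plcg1-/-Plcg2-/- CLPs, with no overlap (edgeR adjusted p = 0.365 unpaired and 0.00427 paired, 9 libraries), and Lat, the adaptor that links this receptor to PLCγ1, at 15.4, 72.8 and 27.0 against 28.6, 109 and 65.2 CPM. The 12 T cell markers summed to between 128 and 298 CPM and between 163 and 322 CPM.

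In 22 glycolysis genes, 4 were higher and 0 lower at an unadjusted p no greater than 0.05 (3.52% and 4.02% of all genes), and 7 were higher in the paired fit of 9 libraries (7.7%), with a median log2 fold change of 0.28. The 4 were Gapdh, Pkm, Hk1 and Gpi1, with log2 fold changes of 0.41, 0.35, 0.54 and 0.45, all without overlap between genotypes and none past an edgeR test. The 19 genes of the ATF4 and amino acid response had 3 higher at that level and 9 in the paired fit of 9 libraries; the 3 were Trib3 (2.51, 2.58 and 3.30 against 2.95, 12.8 and 18.3 CPM), Atf5 and Chac1, and 26 interferon-stimulated genes had 2 higher, Oas1a and Oas3 (2.16-fold), and 5 in the paired fit of 9 libraries. DNA replication genes (33 tested, E2f1 at -0.36 and Tyms at 0.40), mitosis genes (28 tested, 0 at an unadjusted p of at most 0.05), immediate early and ERK feedback genes (31 tested) and sterol and fatty acid synthesis genes (27 tested, 0) had median log2 fold changes of -0.05, 0.10, -0.05 and 0.08. Markers of plasma cells, NK and innate lymphoid cells, macrophages, neutrophils, erythroid cells, plasmacytoid dendritic cells, basophils and mast cells, megakaryocytes and stromal cells held 0 genes at an unadjusted p of at most 0.05 in the unpaired test and 0 calls in the paired tests. At that level the paired fit of 9 libraries had 4 of 14 NK and innate lymphoid, 2 of 6 plasmacytoid dendritic, 1 of 4 plasma cell and 1 of 6 stromal markers lower (7.92% of all genes). It had 3 of 7 erythroid and 1 of 12 neutrophil markers higher (7.7%), and of 16 macrophage markers 3 higher and 1 lower. The part of these cells in the results of that test was not tested. The 4 globin genes of the erythroid list were at 0 in all 6 libraries.

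Plcg1 loss was also set beside its effect in CLPs with Plcg2, a contrast that shares no library with the one above. In Plcg1-/-Plcg2+/+ against Plcg1+/+Plcg2+/+ CLPs, 1 of 15209 genes was called (0.00658%), BC002163, and the test of the difference between both effects called 3 (0.0197%; 725 genes, 4.77%, at an unadjusted p no greater than 0.05). Serinc3 had a log2 fold change of -2.57 (SE 0.20) with Plcg1 loss on Plcg2-/- and -0.16 (SE 0.19) on Plcg2+/+, a difference of -2.40 (SE 0.27, edgeR adjusted p = 0.00851). Gm5801 was at 2.97, 4.35 and 2.73 CPM in Plcg1+/+Plcg2+/+ and 0.298, 0.337 and 0.0990 CPM in Plcg1-/-Plcg2+/+ CLPs, so that it was low in both single-deficient genotypes and high in the other 2 (edgeR adjusted p = 0.00548 for the difference). BC002163, for which no position was matched, was at 5.14, 6.77 and 6.25 CPM in Plcg1+/+Plcg2+/+ and 0.954, 0.818 and 0.693 CPM in Plcg1-/-Plcg2+/+ CLPs, and at 4.62, 5.38 and 4.61 CPM in Plcg1+/+Plcg2-/- and 7.14, 5.86 and 7.22 CPM in Plcg1-/-Plcg2-/- CLPs (edgeR adjusted p = 0.00851 for the difference). In the paired fit of 12 libraries, 9 genes were called for the difference, these 3 and Nkd2, Pcdh9, Arhgap10, Mmrn1, Scn4b and Vpreb2.

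Ctse behaved otherwise. It was at 34.3, 41.3 and 74.0 CPM in Plcg1+/+Plcg2+/+ and 185, 315 and 234 CPM in Plcg1-/-Plcg2+/+ CLPs, a log2 fold change of 2.29 (SE 0.37) beside 2.21 (SE 0.37) on Plcg2-/-. Both Plcg1-/- genotypes were above both Plcg1+/+ genotypes without overlap, as the Y-linked genes were below. For the 6 MHC class II genes above the values with Plcg1 loss on Plcg2+/+ had the opposite sign, 0.47 for Cd74 and 0.43 for H2-Eb1, but the difference did not pass for any of them (edgeR adjusted p = 0.862 for each). Rasgrp1 had a log2 fold change of -0.01 (SE 0.23) on Plcg2+/+, and the difference, -1.53, did not pass either (edgeR adjusted p = 0.801).

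**Figure D5:**
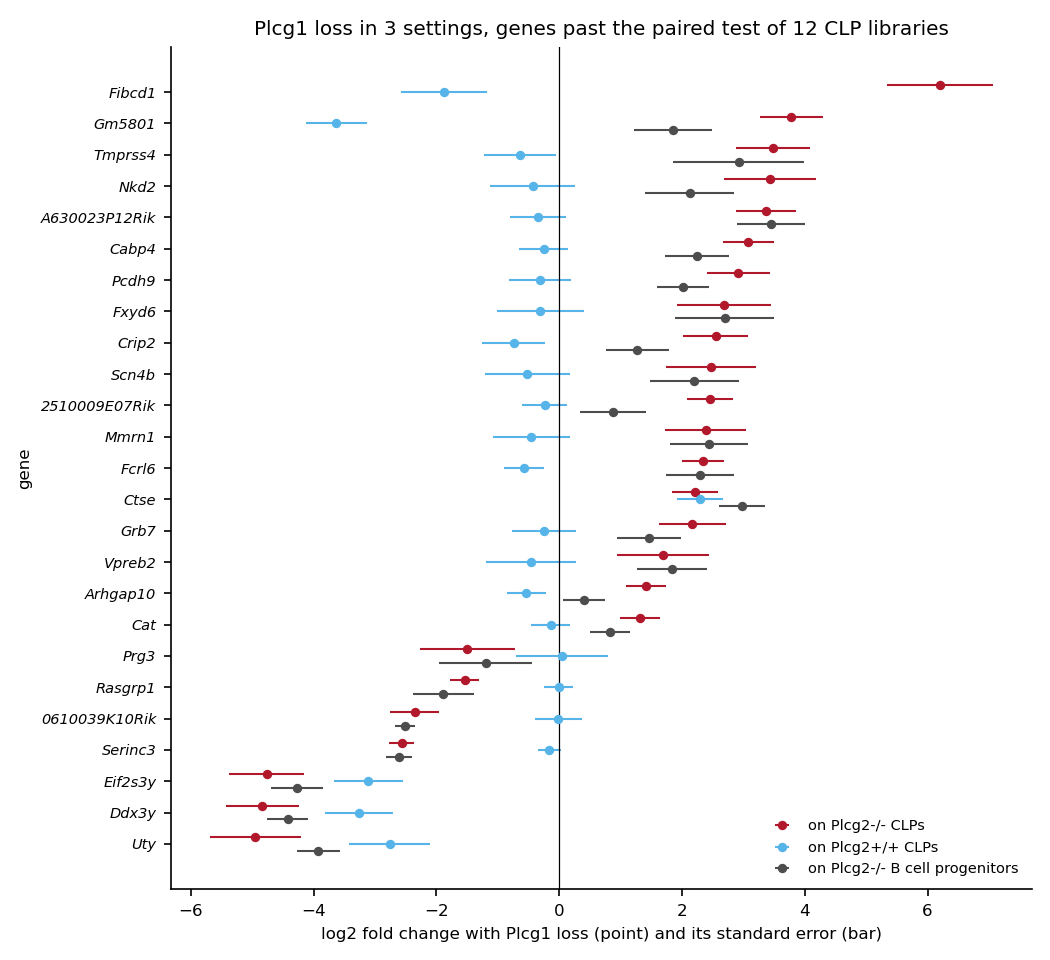
Log2 fold change with Plcg1 loss (point) and its SE (bar) for the genes named here among the 26 past the paired test of 12 CLP libraries, on Plcg2-/- CLPs (red), Plcg2+/+ CLPs (light blue) and Plcg2-/- B cell progenitors (grey). On Plcg2+/+ most genes lie near 0, while Ctse lies at 2.29, the Y-linked genes lie below -2 and Gm5801 below -3; Fibcd1 was not tested in B cell progenitors.

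Each B cell progenitor library shares its title number with a CLP library, and this number was taken here to mark a recipient. The B cell progenitor libraries gave the same contrast in 15001 tested genes, of which 23 were called (0.153%), 8 higher (0.0533%) and 15 lower (0.1%). These libraries are not independent of the CLP libraries, and 60.3% to 75.8% of their reads fell on no gene. Of the 8 genes called in CLPs, Serinc3, Ddx3y, Eif2s3y and A630023P12Rik were also called there. Serinc3 was at 2405, 3196 and 2730.5 CPM in Plcg1+/+Plcg2-/- and 469.7, 320.0 and 574 CPM in Plcg1-/-Plcg2-/- B cell progenitors (log2 fold change -2.61, SE 0.21, edgeR adjusted p = 0.000123). 0610039K10Rik, at 2.64 to 5.36 CPM in Plcg1+/+Plcg2-/- CLPs, was at 175, 205 and 174 CPM in Plcg1+/+Plcg2-/- and 33.1, 27.5 and 37.2 CPM in Plcg1-/-Plcg2-/- B cell progenitors. Ambiguous reads were 0.204% to 0.420% in these B cell progenitor and 1.06% to 1.44% in the CLP libraries, and whether reads that overlap Serinc3 were assigned alike in both was not tested. Ciita (31.4, 61.9 and 20.4 against 11.9, 5.27 and 8.67 CPM, edgeR adjusted p = 0.0405), Ctse (edgeR adjusted p = 0.00596) and Pkig (edgeR adjusted p = 0.0294) passed the unpaired test there. In the test of the difference between both populations, with the title number as a block, 0 of 17212 genes were called by edgeR (651, 3.78%, at an unadjusted p no greater than 0.05) and 1, Ctsl, by DESeq2.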

How the data were processed

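CLPs and B cell progenitors were analysed as sorted populations by RNA-seq of poly(A) RNA. The authors aligned reads to mm10 with STAR (version 2.5.0a in the submitters' processing notes) on BaseSpace and deposited raw counts of reads per gene for 24421 gene symbols, without normalization. The counting program and its strand setting are not given in the sources used here. The 2 rows for reads on no gene (17.9% to 45.2% of reads in the 6 CLP libraries) and ambiguous reads (1.06% to 1.44%) were left out. Genotype, population and replicate number come from the sample labels.

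The test was that of edgeR 4.0.16 under R 4.3.3 (filterByExpr, TMM, glmQLFit and glmQLFTest, two-sided, Benjamini-Hochberg adjustment), with the 12 CLP libraries in one fit, and SEs were taken from the F statistic. A gene was called with an adjusted p no greater than 0.05 and a log2 fold change of 0.5 or more in either direction. The authors used DESeq2, here an alternative (1.42.0). P-values measure the spread between recipients. Replicate numbers are shared by the genotypes in the labels. Deviations from the group mean of log2 CPM (prior count 2) correlated between same-numbered libraries at 0.236 to 0.535 (Plcg1-/-Plcg2-/- and Plcg1+/+Plcg2-/-), 0.37 to 0.645 (Plcg1-/-Plcg2-/- and Plcg1-/-Plcg2+/+) and 0.315 to 0.602 (Plcg1+/+Plcg2-/- and Plcg1-/-Plcg2+/+), and at -0.22 to 0.31 with Plcg1+/+Plcg2+/+. The first were all above 0.1, which was taken as pairing. Differently numbered libraries of these 3 genotypes correlated at -0.473 to 0.119. Deviations within a genotype cancel out for each gene, so these values tend to be negative where same-numbered libraries correlate positively. They are therefore no separate support for pairing, which was read from these same data. Replicate 1 of Plcg1+/+Plcg2+/+ correlated with replicate 2 of the other genotypes at 0.367 to 0.477, so likeness did not follow the number alone. The CLP libraries with title numbers below 1800 were replicate 1 of Plcg1-/-Plcg2-/- (1790) and replicate 2 of Plcg1+/+Plcg2-/- (1789), which fall in different pairs. The chi-square between replicates, divided by its degrees of freedom, was 17.7 to 77.2, so none is a copy.

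The members and gene lists were chosen with earlier results of these data known. Named genes are those called; Plcg1, Plcg2, Il7r and sex-linked genes; up to 10 higher and 10 lower genes with non-overlapping groups and the smallest p; up to 4 genes per list; the 3 genes with the smallest p near Plcg1; and genes called for the difference by Plcg2 genotype. Those named from a paired test, and H2-Aa, H2-Ab1, Fcrla, Cd22, Igll1, Lef1, Bok, Ttpal, Tox2, Ada, Eya2, Lat and Ctsl, were named after their values were seen. Some genes that meet the rule are not reported here. Of the symbols, 24272 matched RefSeq GRCm38.p6, which also gave the promoter sequences. The tests were run on simulated data first. Alternatives are given in the closing section.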

Additional observations from a re-analysis of the deposited data

Results flagged for a closer look

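The effect of Plcg1 loss differed between Plcg2-/- and Plcg2+/+ CLPs in 3 genes by the test of the difference itself. The difference in log2 fold change was 7.41 for Gm5801 (edgeR adjusted p = 0.00548), 3.32 for BC002163 (edgeR adjusted p = 0.00851) and -2.40 for Serinc3 (edgeR adjusted p = 0.00851). In Gm5801 and Serinc3 the Plcg1-/-Plcg2-/- and Plcg1+/+Plcg2-/- libraries did not overlap, whereas in BC002163 the libraries that stood apart were those of Plcg1-/-Plcg2+/+, at 0.693 to 0.954 CPM. The value of Gm5801 rests on 12 reads in Plcg1+/+Plcg2-/- CLPs. Genes were not screened for single outlying libraries, since each group has 3.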

How the results depend on the processing

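For Plcg1-/-Plcg2-/- against Plcg1+/+Plcg2-/- CLPs, 8 genes were called, and the count moved with most settings: 13 without a filter on low counts, 104 with DESeq2, 26 with the replicate block, 234 with the replicate block and without the Plcg1+/+Plcg2+/+ libraries (added after seeing the data), 0 with the 6 libraries alone in edgeR (1087 at an unadjusted p of at most 0.05) and 157 in DESeq2, 1 when Xist, Tsix and Y-linked genes were left out, and 1 with the share of reads on no gene as covariate. It was 11 with RLE size factors, 7 (2 higher, 5 lower) with counts thinned to the smallest library, 7 (2 higher, 5 lower) with a term for sample title numbers below 1800 and 8 with adjusted p alone. Leaving out 1 library gave 1 to 18 genes: 18 without replicate 1 of Plcg1-/-Plcg2-/-, and 1, Serinc3, without any of the other 5. Serinc3 was called in 17 of 18 settings, the exception being edgeR on the 6 libraries alone. Of 234 genes past the paired test of 9 libraries, replicate 1 of Plcg1-/-Plcg2-/- was the library nearest to the Plcg1+/+Plcg2-/- mean in 190.

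For the difference by Plcg2 genotype, 3 genes were called, 29 with DESeq2, 9 with the replicate block and 1 to 4 when leaving out 1 library (1 without replicate 3 of Plcg1-/-Plcg2-/- or replicate 1 of Plcg1+/+Plcg2-/-). For B cell progenitors, 23 were called, 161 with DESeq2, 46 with the replicate block and 8 to 26 when leaving out 1 library (8 without replicate 2 of Plcg1+/+Plcg2-/-, 10 without replicate 2 or 3 of Plcg1-/-Plcg2-/-). For the difference between both populations, 0 were called and 1 with DESeq2, and no further replicate block was fitted, since its design already blocks on the title number. Causes of these differences were not tested, other than that fewer samples or fewer small p-values enter some fits.

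Single genes changed sign in 8 values, all of genes not called by the unpaired test: Plcg2 (0.0001), Il7r (-0.47), Lat (-0.11) and Ctsl (0.065) with the share of reads on no gene as covariate, and Il7r also without replicate 2 of Plcg1-/-Plcg2-/- (-0.22) and without replicates 1 (-0.17) or 3 (-0.10) of Plcg1+/+Plcg2-/- (range -0.22 to 0.89 when leaving out 1 library). For Tox2, log2 fold change ranged from -5.05 to 0.53 when leaving out 1 library, the latter without replicate 2 of Plcg1+/+Plcg2-/-. Depth limits the low genes: on thinned counts Fibcd1 was too low to be tested and Gm5801 had an edgeR adjusted p of 0.174.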
